A study of Homo sapiens with 12 samples.

Results

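The 5 genes MGP, BCAS1, THSD7A, VAV1 and FHL1 were taken from the 58721 genes of the deposited tables. They were selected by measured values in Pa-Tu-8902, namely low counts without doxycycline (dox) together with a large rise, or a difference from the other cell line. Their dox response in Pa-Tu-8902 and their differences between lines are therefore described without a test. Polyadenylated RNA was sequenced from 2 human pancreatic ductal adenocarcinoma (PDA) cell lines, Pa-Tu-8902 and MIA PaCa-2, each stably transduced with iDox-shGOT1, a dox-inducible hairpin against the cytosolic aspartate aminotransaminase GOT1. The 4 groups were untreated Pa-Tu-8902 iDox-shGOT1, the same cells after 5 days of dox, and MIA PaCa-2 iDox-shGOT1 in the same pair of states, with 3 libraries each. Every library carried the hairpin, and no dox-treated library without it was analysed here, so that dox and the loss of GOT1 cannot be told apart. The methods describe antibiotic-selected lines and do not say whether they are single clones.

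Total counts ran from 26226537 to 43406137 per library. GOT1 itself fell from 3350 to 4141 counts to 138 to 209 in Pa-Tu-8902, and from 2209 to 2281 counts to 63 to 110 in MIA PaCa-2 (edgeR adjusted p = 1.51e-09 and 1.06e-09). The assignment to a line rests on the sample titles. E-cadherin (CDH1), the main adhesion protein of epithelial cells, had 4899 to 14179 counts in the libraries named Pa-Tu-8902 and 0 to 4 in those named MIA PaCa-2, and the fibroblast collagen COL1A2 had 0 to 41 and 23300 to 45357 counts. The highest COL1A2 count of Pa-Tu-8902 was in untreated replicate 3.

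The proteins of the 5 genes come from unrelated families. MGP, matrix Gla protein, is a small secreted protein that needs vitamin K-dependent carboxylation and keeps soft tissue from calcifying. BCAS1 is a myelin-associated protein of newly forming oligodendrocytes whose gene lies in a chromosome 20 segment often amplified in breast cancer. THSD7A is a membrane protein with thrombospondin type 1 repeats, best known from endothelium and from the podocytes of the kidney. VAV1 is a guanine nucleotide exchange factor that activates small GTPases below antigen receptors and is normally restricted to blood cells, although expression in pancreatic cancer has been described. FHL1 is a protein of 4 complete LIM domains and a partial one that is abundant in striated muscle.

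The word "switched on" was borne out by the counts of 1 of the 5 genes. MGP was at or below 3 counts in every untreated Pa-Tu-8902 library and at 214 to 280 counts with dox. BCAS1 and THSD7A were already detected without dox and were 15.3 and 12.2 times higher with it. VAV1 had at least 351 counts in each library of both states, and what set it apart was its near absence from MIA PaCa-2. FHL1 reached at most 12 counts in Pa-Tu-8902 with dox and was the only one of the 5 that MIA PaCa-2 expressed. Of the 5, 4 passed the filter on low counts in Pa-Tu-8902 and 3 met the criteria for a higher call that 9.22% of all tested genes met, which the selection fixes. The levels are counts in bulk RNA, so that fewer positive cells and less RNA per cell cannot be told apart.

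**Figure D1:**
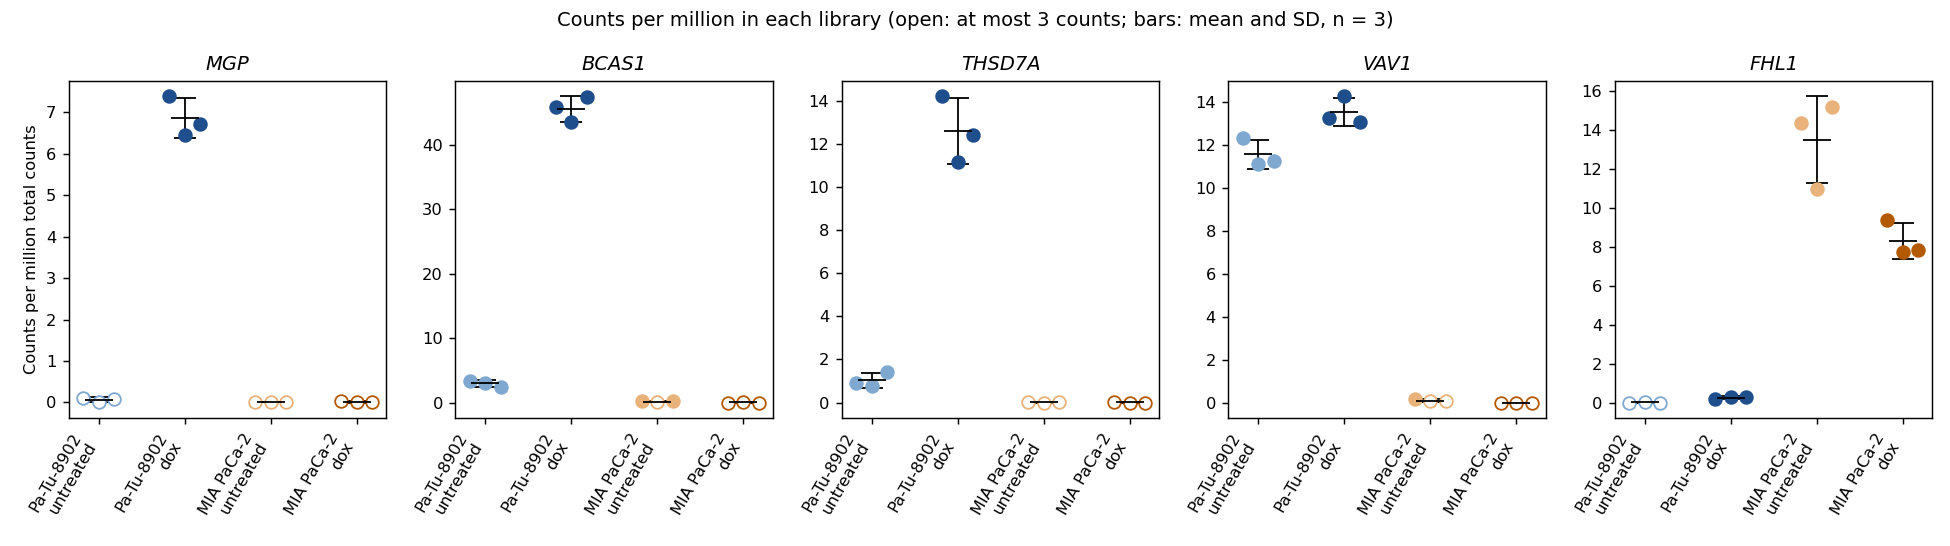
CPM, the count scaled to the library's total count (y axis), of each gene in the 12 libraries, grouped by line and dox (x axis). Points are libraries, open points hold at most 3 counts, and bars give the mean and SD of 3 libraries. MGP, BCAS1 and THSD7A stand high only in dox-treated Pa-Tu-8902, VAV1 in both Pa-Tu-8902 groups and FHL1 in both MIA PaCa-2 groups.

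MGP (ENSG00000111341.9; chromosome 12, 14880864 to 14885857, minus strand, GRCh38) had 3, 0 and 3 counts in the untreated Pa-Tu-8902 libraries 1, 2 and 3. With dox it had 252, 280 and 214 counts. The untreated group was thus at the floor of 3 counts in each library, and every dox library lay far above it. As CPM, the count scaled to the total count of its library, the means were 0.0661 ± 0.0576 (SD, n = 3) without and 6.85 ± 0.480 (SD, n = 3) with dox. The ratio of the summed counts, scaled to depth, was 110.3 with an exact 95% interval of 50.5 to 302, an interval that covers counting error alone, as do all such intervals here. The fitted log2 fold change was 6.64 ± 0.33 (SE), and it went down to 5.99 without untreated replicate 2, the library with no MGP count. In MIA PaCa-2, MGP had no count in the 3 untreated libraries and 1, 0 and 0 counts with dox. Both MIA PaCa-2 groups were at the floor, and no fold was computed between them.

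Most MGP reads with dox, 77.3% to 85.7% per library, were assigned to the transcript MGP-203. The short transcript MGP-204 is annotated with 423 bases and held 35.05, 61.61 and 35.97 estimated counts, and it made up 50.8% to 62.9% of the gene's TPM, the level scaled for transcript length and depth. The TPM level of MGP, 15.34, 15.72 and 16.04 in the 3 dox libraries, hence leans on few reads. An opposite-strand gene, C12orf60, overlaps MGP and shares 76 exonic bases with it. C12orf60 had 175 to 197 counts in untreated and 209 to 286 in dox-treated Pa-Tu-8902 (log2 fold change 0.15 ± 0.11 SE, edgeR adjusted p = 0.261), and 94 to 143 counts in MIA PaCa-2, where MGP was near 0.

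BCAS1 (ENSG00000064787.13; chromosome 20, 53936777 to 54070594, minus strand) had 97, 111 and 79 counts in untreated Pa-Tu-8902 and 1564, 1886 and 1506 with dox. No untreated library was near the floor, and the groups did not overlap. Mean CPM was 2.97 ± 0.480 without and 45.5 ± 1.95 with dox (SD, n = 3 each). The depth-scaled ratio of summed counts was 15.3 (13.6 to 17.3) and the fitted log2 fold change 3.88 ± 0.09 (SE). In MIA PaCa-2, BCAS1 had 7, 1 and 7 counts without dox and 0, 2 and 0 with it. The dox group there was at the floor and the untreated group just above it in 2 of 3 libraries. The transcript BCAS1-202 held 84.9% to 93.0% of the gene's counts in untreated and 87.5% to 88.9% in dox-treated Pa-Tu-8902, so that its share was alike in both states. The shorter transcript BCAS1-203 held 1.55% to 3.03% of the counts with dox. None of the MIA PaCa-2 counts were assigned to BCAS1-202. A long noncoding RNA on the opposite strand (ENSG00000236352) shares 755 exonic bases with BCAS1 and had 23 to 38 counts in MIA PaCa-2 and no count in Pa-Tu-8902. Without a stated strand setting, reads of this pair cannot be told apart.

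THSD7A (ENSG00000005108.15; chromosome 7, 11370365 to 11832198, minus strand) spans 461834 bases. The 250 bases before its start are shown because this is the only one of the 3 risen genes with a window in the RefSeq table used (GRCh38.p14, minus strand, chr7:11832199-11832448). MGP and BCAS1 had none. Capitals would mark any of 6 promoter motifs, spelled out after the sequence and searched on both strands.
THSD7A: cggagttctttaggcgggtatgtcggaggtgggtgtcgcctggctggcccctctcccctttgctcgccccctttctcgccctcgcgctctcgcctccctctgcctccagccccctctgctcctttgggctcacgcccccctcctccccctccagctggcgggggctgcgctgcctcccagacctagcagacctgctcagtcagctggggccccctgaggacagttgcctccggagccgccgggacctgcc
The window held none of the motifs and was rich in G and C, with 70.8% against a median of 58.0% over all 35116 windows. Of all windows, 10.7% held the TATA box, TATAAA. The CCAAT box, named by its letters, was in 32% of the windows. The GC box, GGGCGG, was in 42.6%. The AP-1 site, TGANTCA, was in 6.57%. The E-box, CACGTG, was in 6.34%. The cyclic AMP response element, TGACGTCA, was in 1.65%. No motif match is read here as a binding site.

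THSD7A had 26, 28 and 45 counts in untreated Pa-Tu-8902, and 485, 484 and 395 with dox. It was low but above the floor in each untreated library, and the groups did not overlap. Mean CPM was 1.03 ± 0.329 without and 12.6 ± 1.54 with dox (SD, n = 3 each), a ratio of summed counts of 12.2 (9.96 to 15.1) and a log2 fold change of 3.55 ± 0.19 (SE). MIA PaCa-2 held 1, 0 and 1 counts without and 1, 0 and 0 with dox, at the floor in both groups. With dox, all THSD7A reads were assigned to THSD7A-202, the transcript that starts at the window above. Without dox, the same transcript held every read in replicate 2 and none in replicates 1 and 3, where THSD7A-205 held 26.0 and 39.7 of the estimated counts. With so few reads, the split between transcripts differed among libraries of a single group. The overlapping genes had at most 6 counts in any library.

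VAV1 (ENSG00000141968.7; chromosome 19, 6772708 to 6857366, plus strand) had 351, 403 and 363 counts in untreated and 453, 619 and 416 in dox-treated Pa-Tu-8902. The dox libraries all lay above the untreated ones in raw counts, although the libraries differ in depth. Scaled to depth, the untreated libraries held 11.6 ± 0.659 and the dox libraries 13.5 ± 0.636 CPM (SD, n = 3 each). The dox libraries lay above the untreated ones by a ratio of 1.18 (1.09 to 1.28), and the log2 fold change was 0.17 ± 0.08 (SE), far below the fold of 1.5 asked of a call. VAV1 was thus on in Pa-Tu-8902 before dox. The MIA PaCa-2 libraries had 6, 2 and 2 counts without dox and no count in any dox library. The summed counts were 107.0 times higher in untreated Pa-Tu-8902 than in untreated MIA PaCa-2 (58.0 to 224). With dox, where MIA PaCa-2 held no VAV1 count, the exact interval of the depth-scaled ratio of MIA PaCa-2 to Pa-Tu-8902 reached up to 0.00308.

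The reads of VAV1 were mostly assigned to a transcript that starts inside the gene. VAV1-202 held 69.8% to 81.5% of the counts without and 74.1% to 79.9% with dox. The retained-intron transcript VAV1-209 held 17.1% to 23.9% and 16.6% to 23.7%. VAV1-201 and VAV1-204 start next to the RefSeq window and together never exceeded 17.7 estimated counts in a library. The 250 bases before the RefSeq start are shown because few of the reads were assigned to the transcripts that begin there (GRCh38.p14, plus strand, chr19:6772458-6772707). Capitals mark GC boxes.
VAV1 gene start: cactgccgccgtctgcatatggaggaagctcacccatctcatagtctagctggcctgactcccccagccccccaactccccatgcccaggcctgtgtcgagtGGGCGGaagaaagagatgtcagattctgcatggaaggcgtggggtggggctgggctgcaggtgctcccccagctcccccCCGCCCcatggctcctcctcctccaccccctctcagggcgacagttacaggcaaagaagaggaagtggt
The window holds the GC box at 2 places, 148 and 69 bases before the start when counted to the first letter, and none of the other motifs. The share of G and C was 63.6%. The transcript shares are estimates, since the transcripts have most exons in common.

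FHL1 (ENSG00000022267.16; chromosome X, 136146702 to 136211359, plus strand) went the other way between lines. In untreated Pa-Tu-8902 it had 0, 1 and 0 counts and with dox 6, 12 and 10. The untreated group was at the floor and the dox group a few counts above it, at 0.256 ± 0.0715 CPM (SD, n = 3). The ratio of summed counts was 24.8 with a counting interval of 4.11 to 1016, since it rests on 1 untreated read. With 6 counts in dox replicate 1, FHL1 of Pa-Tu-8902 did not pass the filter of 10 counts in 3 libraries. In MIA PaCa-2 it had 465, 334 and 459 counts without and 256, 203 and 272 with dox. Every dox library was below every untreated one, and mean CPM was 13.5 ± 2.23 and 8.32 ± 0.917 (SD, n = 3 each). This response was no part of the selection, although the level in MIA PaCa-2 may have been. FHL1 fell with dox in MIA PaCa-2 (log2 fold change -0.71 ± 0.12 SE, edgeR adjusted p = 0.000869). The adjusted p ran from 5.78e-09 to 0.00736 over 12 alternative fits. Of the 5 genes it was the only one tested there, in a comparison that called 7.64% of all tested genes lower and 4.36% higher.

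The transcript FHL1-205 held 88.0% to 97.7% of the FHL1 counts in untreated and 89.8% to 97.4% in dox-treated MIA PaCa-2. In Pa-Tu-8902 no read was assigned to it. The few reads there went to other transcripts, which differed from library to library. FHL1-227 held 3.26 and 10.1 estimated counts in dox replicates 1 and 2, and FHL1-216 held 8.46 in replicate 3. RefSeq lists 12 start windows for the gene and FHL1-205 could not be placed on any of them, so no sequence is shown.

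**Figure D2:**
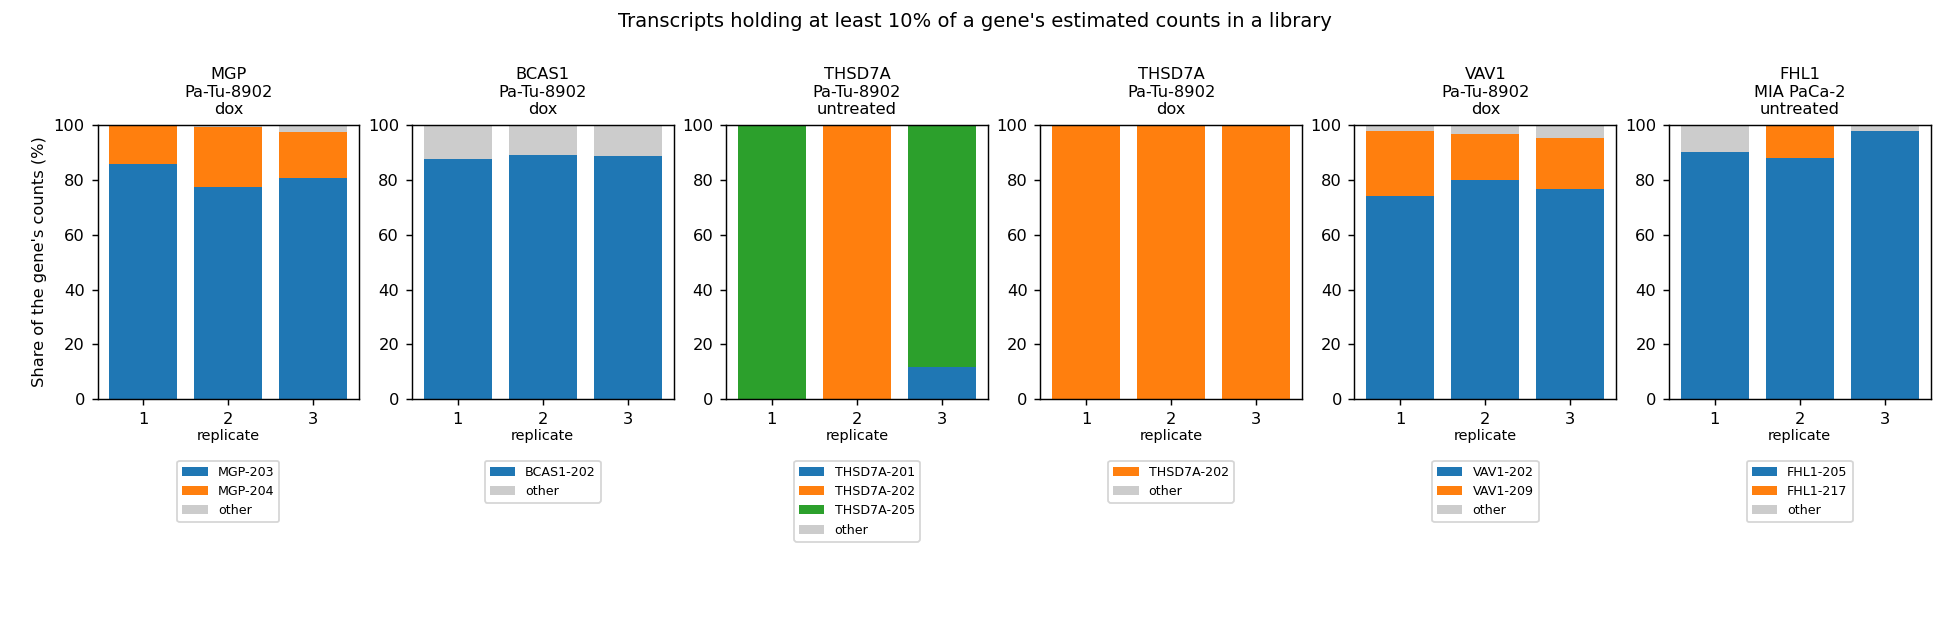
Share of each gene's estimated counts (y axis, percent) held by each transcript in the 3 replicates (x axis) of the group named above each panel. Grey stands for transcripts under 10% in every library shown. THSD7A reads sit on 1 transcript with dox and on different ones among the untreated libraries.

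On the per-length scale of TPM, the genes can be set beside each other. With dox in Pa-Tu-8902, BCAS1 was highest at 21.9 ± 0.675 TPM, followed by MGP at 15.7 ± 0.350, VAV1 at 13.3 ± 1.08, THSD7A at 1.65 ± 0.210 and FHL1 at 0.317 ± 0.0902 (SD, n = 3 each). Neighbouring genes in this order did not overlap between libraries. The place of MGP rests on the 35.05 to 61.61 estimated counts of MGP-204. MGP-203 alone had 5.77 to 7.51 TPM, below VAV1 as a whole gene. The TPM of VAV1 leans on a short transcript too. VAV1-209, with 77.4 to 107 estimated counts, held 42.4% to 52.7% of it. VAV1-202 alone had 5.67 to 6.46 TPM, which overlaps MGP-203. As CPM, which is not scaled for length, MGP (6.85) stood below VAV1 (13.5) and THSD7A (12.6). Without dox the order was VAV1 at 11.1 ± 1.10 and BCAS1 at 1.41 ± 0.288, then THSD7A at 0.177 ± 0.116 and MGP at 0.137 ± 0.146, and FHL1 at 0.00667 ± 0.0115 (SD, n = 3 each). The untreated library values of THSD7A and MGP overlapped, as did those of MGP and FHL1. BCAS1 moved from rank 12345 to rank 5727 among the genes above 0 TPM, and MGP from rank 17651 to rank 6803. In MIA PaCa-2 only FHL1 reached 1 TPM, with 8.06 ± 1.99 TPM without and 5.70 ± 0.345 TPM with dox (SD, n = 3 each), and the TPM ranges of those groups, 5.85 to 9.71 and 5.36 to 6.05, overlapped.

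**Figure D3:**
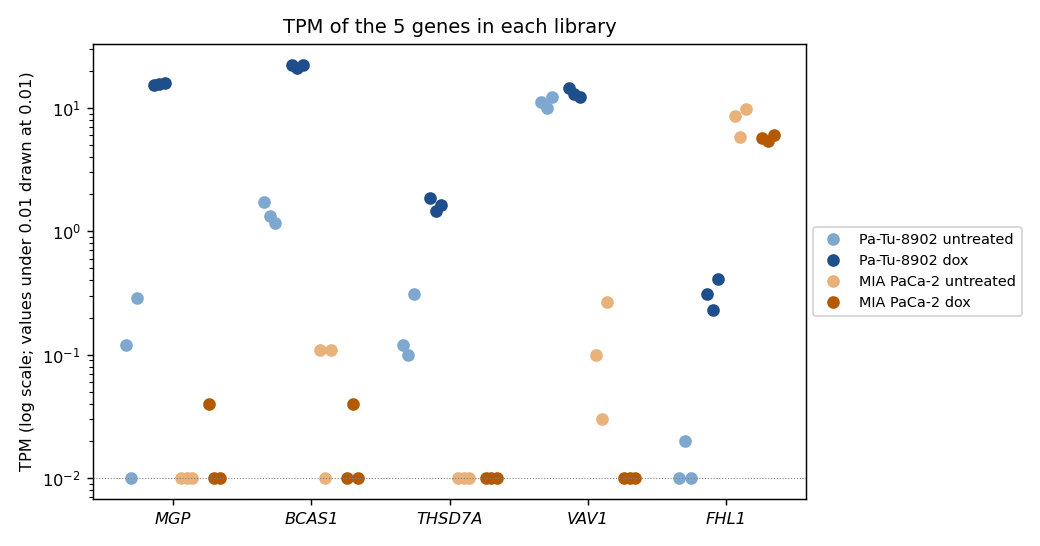
TPM of the 5 genes in every library on a log scale (y axis). Values under 0.01 are drawn at 0.01, and colours give line and dox. The dox-treated Pa-Tu-8902 libraries of MGP, BCAS1 and VAV1 lie between 12.35 and 22.39 TPM.

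Genes whose level followed the same pattern were ranked by Pearson r of log2(TPM + 1) over the 12 libraries, among the 15151 genes whose mean reached 1 TPM in any group. These libraries fall into 2 lines and 2 states, and a high r mainly repeats that grouping. It does not ask that a gene be absent from the same groups as the member. Closest to MGP were the sodium/proton exchanger SLC9A4 (r = 0.998), the small GTPase RHOU (r = 0.996) and METTL7A (r = 0.995). SLC9A4 went from a mean of 0.05 to 1.82 TPM in Pa-Tu-8902 and was at 0 in MIA PaCa-2. Closest to BCAS1 were the mucosal scavenger-receptor glycoprotein DMBT1, the metalloprotease ADAM28 and LINC01537 (each r = 0.997). ADAM28 went from 1.23 to 11.9 TPM. Closest to THSD7A were the acid phosphatase ACPP and the calcium-binding S100A9 (each r = 0.994), with the endoplasmic reticulum protein RCN1 (r = 0.992). S100A9 went from 0.553 to 7.44 TPM. RCN1 went from 147 to 273 TPM in Pa-Tu-8902 but also had 125 and 131 TPM in MIA PaCa-2, where THSD7A was at the floor. Closest to VAV1 were TMEM139, the epithelial splicing regulator ESRP1 and the immunoproteasome subunit PSMB8 (each r = 0.999), all with a mean of at least 18.7 TPM in both Pa-Tu-8902 groups. ESRP1 had 122 and 164 TPM there and 0.157 and 0.0900 in MIA PaCa-2. Closest to FHL1 were FAM210B, the succinate-CoA ligase subunit SUCLG2 and the endocytic receptor CUBN (each r = 0.997). CUBN, like FHL1, went down from 87.1 to 51.8 TPM in MIA PaCa-2 and stood at 0.0900 and 0.543 TPM in Pa-Tu-8902.

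The chromosomal neighbours were not used in the selection. The 2 nearest protein-coding genes of the tables on each side of each member gave 20 flanking genes, of which 14 could be tested in Pa-Tu-8902. With edgeR's quasi-likelihood test, 5 of the 14 rose, while 9.22% of all tested genes were called higher and 7.12% lower. ERP27, an endoplasmic reticulum protein 28.2 kb from MGP, went from 88 to 152 counts to 459 to 708 (log2 fold change 1.94 ± 0.14 SE, adjusted p = 1.47e-06). TMEM106B, a lysosomal membrane protein 379 kb from THSD7A, rose by 0.62 ± 0.06 (SE, adjusted p = 7.37e-06). Both were called in each of 12 alternative fits. ADGRE1, an adhesion-family receptor 30.2 kb from VAV1, went from 10 to 27 counts to 52 to 75 (log2 fold change 1.499 ± 0.30 SE, adjusted p = 0.00195). Its call was lost without untreated replicate 2 (adjusted p = 0.0111, the highest of its alternatives). CYP24A1, the vitamin D 24-hydroxylase 82.9 kb from BCAS1, went from 13 to 17 counts to 33 to 37 (log2 fold change 1.02 ± 0.27 SE, adjusted p = 0.00807), a call kept in only 2 of 12 alternatives, with adjusted p from 0.00410 to 0.0300.

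Some flanking genes shared the line pattern of their member. ARHGDIB, a GDP-dissociation inhibitor 56.2 kb from MGP, was among the abundant genes of Pa-Tu-8902 (25290 to 31714 counts untreated, 38370 to 52069 after dox), with a log2 fold change of 0.34 ± 0.06 (SE), and had at most 8 counts in MIA PaCa-2. SH2D3A, an adaptor 5.25 kb from VAV1, like VAV1 was high in Pa-Tu-8902, with at least 3084 counts there and at most 4 in MIA PaCa-2. MAP7D3, a microtubule-associated protein 1.86 kb from FHL1, had the same line pattern as FHL1, with 7 to 47 counts in Pa-Tu-8902, whereas MIA PaCa-2 held 1793 to 2404. In MIA PaCa-2, 9 flanking genes were tested and none was called by edgeR or DESeq2, while 4 had an unadjusted edgeR p under 0.05. The difference of the dox response between lines was called for 6 of 14 flanking genes, against 10.4% of all tested genes. Of the 6, ARHGDIB and SH2D3A passed the filter on low counts only through Pa-Tu-8902 and rest on at most 8 and 4 counts in MIA PaCa-2.

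**Figure D4:**
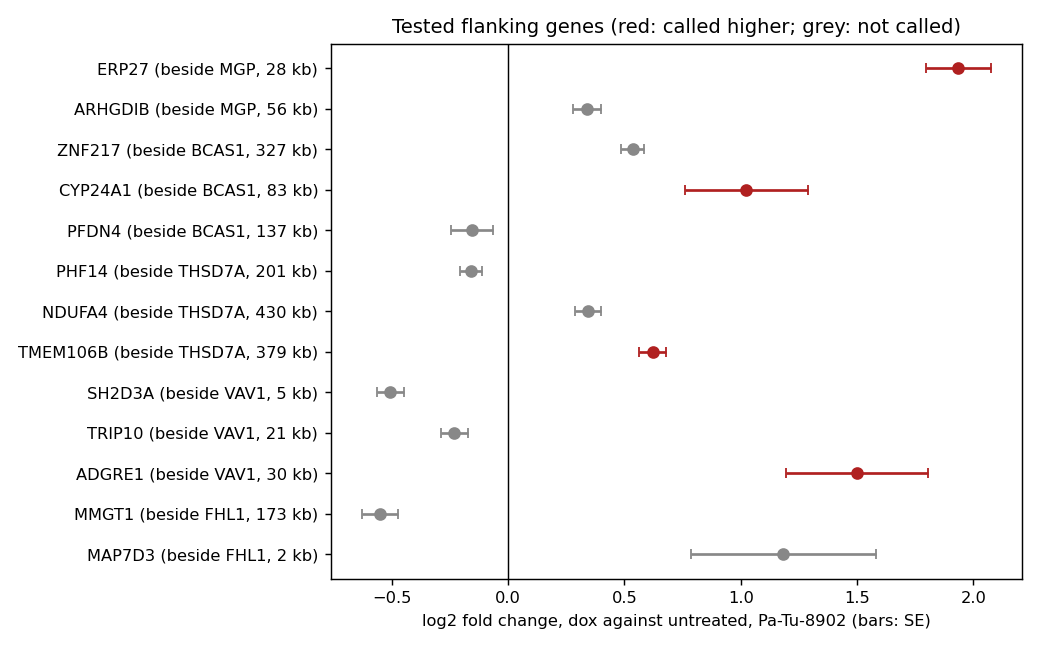
Log2 fold change with dox in Pa-Tu-8902 (x axis) of 13 flanking genes (y axis, with the member and the distance), with SE. Red points are called higher, and ERP27 has the highest value at 1.94.

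The other genes of each member's pathway were looked at through fixed lists without the members themselves. Over all tested genes, Pa-Tu-8902 had a median log2 fold change of 0.00 and MIA PaCa-2 one of -0.01. Of all tested genes, 9.22% were called higher and 7.12% lower in Pa-Tu-8902, and 4.36% and 7.64% in MIA PaCa-2. The counts of called genes in the lists and markers below are to be read beside these shares. Of 17 other Gla proteins and vitamin K cycle genes, 10 were tested in Pa-Tu-8902 and 2 rose and 1 fell, with a median of 0.05. GAS6, the vitamin K-dependent ligand of the AXL receptor, fell from 9274 to 12238 counts to 3081 to 4138 in Pa-Tu-8902 (log2 fold change -1.80 ± 0.05 SE, edgeR adjusted p = 2.63e-09) and also fell in MIA PaCa-2 (-0.68). Protein S (PROS1) rose by 1.04 in Pa-Tu-8902 and fell in MIA PaCa-2 (-0.93). Coagulation factor X (F10) of Pa-Tu-8902 rose from 2 to 4 counts to 16 to 23 (log2 fold change 2.29 ± 0.41 SE). It passed the filter on low counts only through the dox libraries. In MIA PaCa-2, 8 were tested and 3 fell, PRRG1 (-0.59) being the third, with a median of -0.36. The call of PRRG1 was lost without untreated or dox replicate 1. Osteocalcin (BGLAP), the bone counterpart of MGP, had 1.03 to 11.5 estimated counts over the 12 libraries. Of 16 mineralization regulators, 7 were tested in Pa-Tu-8902, with a median of -0.08, and the bone transcription factor RUNX2 fell from 104 to 153 counts to 45 to 69 (log2 fold change -1.40 ± 0.21 SE). In MIA PaCa-2, 5 were tested with a median of 0.37, none was called by edgeR or DESeq2, and 2 had an unadjusted edgeR p under 0.05.

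Around BCAS1, the list of 20q13 genes held 19 others. In Pa-Tu-8902, 12 were tested, with a median of 0.14, and CYP24A1 rose and BCAS4 fell (-0.62 ± 0.10 SE), a call lost without untreated replicate 3 or dox replicate 1. In MIA PaCa-2, 11 were tested with a median of -0.02, none was called by edgeR or DESeq2, and 6 had an unadjusted edgeR p under 0.05. Among 35 other thrombospondin type 1 repeat proteins, 15 were tested in Pa-Tu-8902 with a median of 0.40, and 4 rose and 1 fell. The extracellular protease ADAMTS15 rose from 157 to 221 counts to 1736 to 2351 (log2 fold change 3.15 ± 0.13 SE, edgeR adjusted p = 3.5e-08). The netrin receptors UNC5B (2.96 ± 0.12 SE) and UNC5A (2.15 ± 0.07 SE) rose, as did properdin (CFP, 1.37 ± 0.12 SE). SPON1 fell (-1.07 ± 0.25 SE), a call lost in 7 of 12 alternatives, among them leaving out any library but untreated replicate 1. In MIA PaCa-2, 16 were tested with a median of -0.03. UNC5A (1.01) and UNC5B (0.64) were among the 3 that rose, and the Wnt potentiator RSPO4 (-1.01), ADAMTS4 (-1.39) and ADGRB2 (-1.12) fell. The call of UNC5B there was lost without untreated replicate 1, dox replicate 1 or dox replicate 2. THSD7B, the paralog of THSD7A, had at most 1 count in Pa-Tu-8902, whereas MIA PaCa-2 held 86 to 200, the reverse of THSD7A.

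VAV1 has a pair of paralogs. The broadly expressed VAV2 had 2940 to 4011 counts in Pa-Tu-8902. MIA PaCa-2 held 1741 to 2269 counts of it. It had a log2 fold change of -0.18 ± 0.04 (SE) in Pa-Tu-8902 that was under the fold asked of a call. VAV3 had at most 2 counts anywhere. Of 31 other exchange factors and partners, 24 were tested in Pa-Tu-8902 with a median of -0.10. The adaptor NCK2 rose (0.60 ± 0.06 SE), a call lost without untreated replicate 2, and the Src family kinases LCK (-1.19 ± 0.10 SE) and FYN (-0.75 ± 0.09 SE) and the Rac exchange factor TIAM2 (-0.84 ± 0.09 SE) fell. LCK, like VAV1 a gene of blood cells, went from 521 to 594 counts down to 247 to 363 in Pa-Tu-8902 and never exceeded 3 counts in MIA PaCa-2. In MIA PaCa-2, 22 were tested with a median of -0.04, and TIAM1 (-0.71) and PIK3R1 (-1.08) fell.

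Beside FHL1, FHL2 had 3045 to 4515 counts in Pa-Tu-8902 while MIA PaCa-2 held 620 to 882. FHL3 had 234 to 498 and 249 to 301 counts in the same order, and FHL5 had none. Neither FHL2 (-0.26 ± 0.06 SE) nor FHL3 (0.23 ± 0.12 SE) was called in Pa-Tu-8902. Of 36 other LIM-domain genes, 29 were tested there with a median of 0.07, and 4 rose and 5 fell. Among the 4, LIMCH1 (2 to 3 counts without, 28 to 41 with dox) passed the filter on low counts only through the dox libraries. The focal adhesion protein TGFB1I1 (-2.04 ± 0.13 SE), CRIP1 (-1.45 ± 0.13 SE), PDLIM7 (-1.11 ± 0.05 SE), ABLIM3 (-0.98 ± 0.05 SE) and CSRP1 (-0.74 ± 0.07 SE) fell. In MIA PaCa-2, 30 were tested with a median of -0.03. LIMK1 rose (0.66), and PDLIM3 (-0.86), LIMS2 (-0.65) and ABLIM1 (-0.81) were among those that fell, as FHL1 did. The call of LIMS2 was lost in 1 of 12 alternatives, the fit of all libraries.

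Markers of the cell types in which the members are usually found were read in the same libraries. Of 24 haematopoietic markers, 16 were at or below 3 counts in every untreated and 14 in every dox-treated Pa-Tu-8902 library. The leukocyte antigen PTPRC had 0 to 3 counts and CD2, CD53 and IKZF1 had none in any library. LCK, with a mean of 15.2 TPM without and 6.83 TPM with dox, was the most abundant of the list, followed by CORO1A (2.88 and 2.59 TPM), LAPTM5 (0.767 and 0.67 TPM) and CD14 (0.663 and 0.503 TPM), none of these 3 being called. The summed level of this list was 18.7 to 21.95 TPM without and 11.2 to 12.85 TPM with dox, and most of it was LCK. Of 12 fibroblast markers, 6 were at or below 3 counts in Pa-Tu-8902 without dox and 6 with dox, though not the same 6. DCN and POSTN were so in both groups. The 3 that could be tested rose, namely COL1A1 (313 to 483 counts without, 1402 to 1871 with dox), PDGFRB (5 to 10, 25 to 29) and FBLN1 (3 to 9, 30 to 41). PDGFRB and FBLN1 passed the filter on low counts only through the dox libraries, so that being tested already asked for high counts there. COL1A2 had at most 2 counts with dox. The sum of this list was 4.10 to 6.78 TPM without and 19.4 to 24.2 TPM with dox, and its part in the rise of MGP was not tested. Of 13 oligodendrocyte markers, 8 and 9 were at or below 3 counts in Pa-Tu-8902 without and with dox. MOG had 0 to 2 counts and OLIG2 and ERMN had none. Other markers of the list were well expressed in Pa-Tu-8902, namely CNP (2310 to 4435 counts), MBP (2720 to 3583 counts) and MYRF (566 to 971 counts), none of them called. UGT8 fell from 210 to 279 counts to 77 to 101 (log2 fold change -1.67 ± 0.11 SE, edgeR adjusted p = 7.63e-07). The summed level was 83.3 to 86.45 TPM without and 84.9 to 90.8 TPM with dox, carried by CNP and MBP. The part of these markers in the rise of BCAS1 was not tested.

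Among 11 markers of endothelium and podocytes, the podocyte protein NPHS1 and the endothelial receptor KDR had no count in Pa-Tu-8902. VWF (9 to 21 counts without, 52 to 82 with dox) and SYNPO (3 to 13, 60 to 83) rose. Both passed the filter on low counts only through the dox libraries, so that being tested already asked for high counts there. The sum was 107 to 121 TPM without and 147 to 163 TPM with dox, and nearly all of it was the sialomucin PODXL, with a mean of 112.7 TPM without and 153.8 TPM with dox (log2 fold change 0.39 ± 0.05 SE), which was not called. The part of these markers in the rise of THSD7A was not tested. Of 14 muscle markers, 12 and 11 were at or below 3 counts in MIA PaCa-2 without and with dox, where FHL1 was expressed, and their sum there was 1.86 to 2.59 and 1.73 to 2.24 TPM, mostly ACTA2 with means of 1.96 and 1.79 TPM. MYOD1 had no count in any library. In Pa-Tu-8902 the 12 epithelial markers summed to 9633 to 10745 TPM untreated and to 8659 to 9710 TPM after dox, and the duct keratin KRT19 had 28541 to 43212 counts. In MIA PaCa-2 they summed to 2863 to 3142 TPM untreated and to 2955 to 3195 TPM after dox. KRT19 there fell from 10814 to 11398 counts to 2958 to 3918 (log2 fold change -1.66 ± 0.07 SE, edgeR adjusted p = 2.64e-08). It was the only call among the 7 of these markers tested in MIA PaCa-2.

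To place MGP among genes that went from floor to detection, genes with at most 3 counts in every untreated and at least 10 in every dox library were counted. In Pa-Tu-8902 there were 40, or 0.0979% of the 40870 genes at the floor without dox, and 34 of them are protein coding. In MIA PaCa-2 there were 2, or 0.00486% of 41176. None of the 40 was among the 2. The opposite course, from at least 10 counts to the floor, was taken by 3 genes of Pa-Tu-8902 and by 5 of MIA PaCa-2. Of the 5 members, MGP alone was in the class. FHL1 missed it through dox replicate 1, with 6 counts, and BCAS1, THSD7A and VAV1 missed it because they were present without dox.

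MGP had the largest lowest dox count of the 40, and it was the only gene of either line to go from the floor to at least 100 counts in every dox library. Next came the sodium/iodide symporter SLC5A5, with 2, 3 and 2 counts without and 76, 92 and 61 with dox. CCDC85A had 1, 0 and 2 counts and then 53, 45 and 60. LIMCH1, a LIM-domain protein of the actomyosin skeleton, had 2, 2 and 3 and then 38, 41 and 28 counts. SLURP2, a small secreted protein of epithelia, had no count without and 42, 31 and 28 with dox. The gap between the first and second gene was thus larger than that between any later pair of these 5. MGP was selected on the same counts that define and rank this class, so its first place and this gap are described without a test. Of the 40 genes, 25 had at most 3 counts in all MIA PaCa-2 libraries too, as MGP did.

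**Figure D5:**
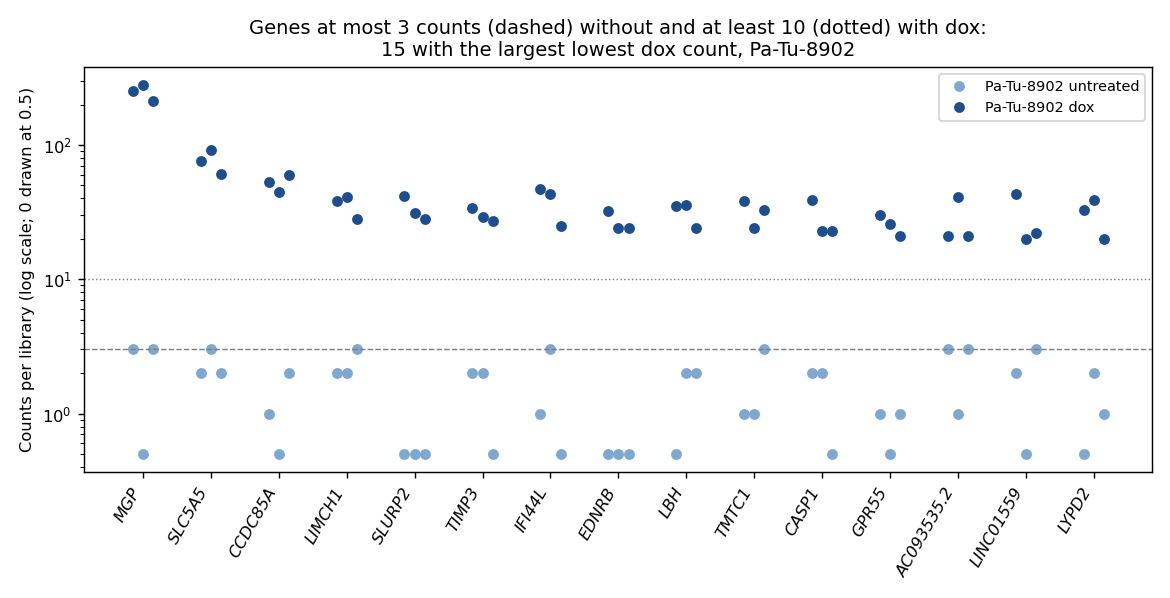
Counts per library on a log scale (y axis) of the 15 genes of Pa-Tu-8902 (x axis) with the largest lowest dox count among those at or below 3 counts (dashed line) without and at or above 10 (dotted line) with dox. A count of 0 is drawn at 0.5, and MGP stands above the rest with 214 to 280 counts.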

How the data were processed

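RNA-seq was analysed for 12 libraries, 3 per group. Per the methods and the submitters' notes, the authors trimmed reads with Trimmomatic 0.39, and STAR 2.5.2a as called by RSEM 1.3.1 with default parameters aligned strand-specific poly-A libraries to GRCh38 (hg38). RSEM's strand setting is not given in the sources used here. The deposited expected counts are not normalized, and 5.34% are not whole. The authors' TPM values are scaled for length and depth by RSEM. FPKM tables and the per-library copies were not used here. Expected counts were rounded, TMM-normalized and tested per line with edgeR 4.0.16 in R 4.3.3 (glmQLFit, glmQLFTest) over genes that reached 10 counts in 3 or more libraries. Genes with a Benjamini-Hochberg adjusted p under 0.01 and a fold of at least 1.5 were called, and an interaction in a fit of all 12 libraries tested the difference between lines. SE was taken as |log2 fold change| over the root of the F statistic. CPM is scaled to total counts, and a group is at the floor when each library has at most 3 counts. Ratios of summed counts carry exact (Clopper-Pearson) 95% intervals.

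The members and the lists were chosen with earlier results of these data known. The text names the members, their 2 protein-coding neighbours per side, transcripts with at least 10% of a member's TPM, up to 5 called genes per list and line by smallest p, direct paralogs, the 3 most similar genes, and the 5 leading genes of the floor-to-detection class. Markers, overlapping genes and transcripts that place reads were named beyond this after their values were seen. Some named genes and sequences that these rules give are not reported here, although counts over lists include them. Positions and overlaps are from GENCODE release 44. Windows are from RefSeq, which held 3 of the 5 members. Nothing says that libraries came from separate cultures, so p-values measure the spread between these samples. On simulated counts for the Pa-Tu-8902 comparison, 199 of 200 changed genes were recovered among 14949, with 7 false calls. For the interaction, 187 of 200 were recovered among 16544. Recovery near the fold of 1.5 and at low counts was not tested separately. Alternatives were DESeq2 1.42.0, other size factors, other filters, a replicate block, 1 fit of all libraries, TPM differences and leaving out each library.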

Additional observations from a re-analysis of the deposited data

Results flagged for a closer look

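For VAV1 and FHL1, every dox library of Pa-Tu-8902 was above every untreated one in CPM and every dox library of MIA PaCa-2 was below, with ratios of 1.18 and 24.8 in Pa-Tu-8902. These differences between lines were not tested, because the lines entered the selection. VAV1 had at most 6 counts in MIA PaCa-2, with none in its dox libraries, and FHL1 had at most 12 in Pa-Tu-8902. How many of all genes separate by library in this way was not counted. The separation alone therefore does not set VAV1 and FHL1 apart from other genes.

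Groups of 3 libraries were too small for a search for single outlying libraries. Among flanking genes, the interaction test in edgeR found a dox response that differed between lines for ARHGDIB (log2 difference, Pa-Tu-8902 minus MIA PaCa-2, -3.55), SH2D3A (-4.89), ZNF217 (0.99), TMEM106B (0.75) and MAP7D3 (1.295). The values of ARHGDIB and SH2D3A rest on at most 8 and 4 counts in MIA PaCa-2. Among the list genes chosen by the naming rule, the difference was positive for PROS1 (1.98), ADGRB2 (1.37), CFP (1.58), UNC5A (1.14), UNC5B (2.32), PIK3R1 (0.95) and ABLIM1 (1.03). It was negative for GAS6 (-1.12), RUNX2 (-1.90), CRIP1 (-1.57), PDLIM7 (-1.01) and TGFB1I1 (-1.53). Other list genes differed between lines as well, among them LIMCH1 (4.07), whose counts in Pa-Tu-8902 had also placed it in the class from floor to detection, CRIP2 (0.87) and NFATC2 (-1.21).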

How the results depend on the processing

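Over 12 alternatives per line, genes called ran from 2114 to 2749 in Pa-Tu-8902 (2443 as reported) and from 1479 to 2040 in MIA PaCa-2 (1751), and from 1549 to 1959 over 17 for the interaction (1724). Flanking genes called were 4 or 5. FHL1 kept its direction and call in MIA PaCa-2 in every fit, and its log2 difference was -0.41 as log2(TPM + 1). The log2 fold change of MGP was 3.88 as log2(TPM + 1), that of BCAS1 3.26 and that of THSD7A 1.17, and no member reversed. With at least 30 counts asked of each dox library, the class from floor to detection held 3 genes of Pa-Tu-8902 and 0 of MIA PaCa-2. Without 1 library each, it held 47 to 64 and 2 to 6, namely 61 without untreated replicate 2 and 64 without dox replicate 3 of Pa-Tu-8902, and 5, 6 and 5 without untreated replicate 1, 2 and 3 and 4 and 6 without dox replicate 2 and 3 of MIA PaCa-2. The cause was not tested beyond the fewer libraries or higher counts asked. With the replicate block, 2380, 1735 and 1611 genes were called. Same-numbered libraries shared only a number, with correlations of their deviations of 0.13, -0.08 and 0.14 in Pa-Tu-8902 and 0.07, -0.09 and -0.05 in MIA PaCa-2. Counts of 7 or fewer limit MGP, VAV1, THSD7A and BCAS1 in MIA PaCa-2, and counts of 3 or fewer limit MGP and FHL1 in untreated Pa-Tu-8902.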
